A study of Mus musculus with 43 samples.

Results

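General adipogenic transcription factors were followed across mouse brown adipocyte cultures and white fat in which RUNX1 or RUNX2 had been added, removed or truncated. The 10 genes, taken by symbol from 26264 rows of each count table, were the nuclear receptors Pparg, Ppard and Rxra, the C/EBP genes Cebpa, Cebpb and Cebpd, the Krüppel-like factor Klf15, the zinc finger gene Zfp423, and the GATA factors Gata2 and Gata3. All 10 were present in the 6 tables and passed the filter on low counts in each. The 43 polyA RNA libraries formed 15 groups. The overexpression table held 9 libraries, 3 each of cultures with the empty vector (labelled OEV, genotype WT), with Runx1 and with Runx2 overexpressed. The knockout table held 12, 3 each of the knock out control (WT), Runx1 knockout, Runx2 knockout and the double knockout, and its columns were headed D7. A separate table held 2 libraries with full length Runx2 and 2 with the Runx2 IDR deleted. All 25 of these libraries came from a cell line labelled BAT that the design text describes as brown preadipocytes differentiated to mature brown adipocytes. White fat labelled IWAT gave 18 libraries in 3 tables, with 3 per group. These compared Runx1 flox with Adipoq-cre:Runx1 KO tissue, Runx2 flox with Adipoq-cre:Runx2 KO tissue, and WT with Runx1 knockout tissue, both labelled HFD. Adipoq-cre drives recombination in adipocytes, so the other cells of such tissue keep the floxed gene. The labels used here give no age or sex, and no Cre line for the HFD tissue. They also do not say whether libraries of a group came from separate cultures or animals, so the p-values measure the spread between these libraries, which may be technical.

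Fat cell formation runs as a cascade of transcription factors. C/EBPβ and C/EBPδ act early after the adipogenic signal and switch on PPARγ and C/EBPα, which then keep each other expressed and turn on the genes of lipid storage and insulin response. PPARγ binds DNA together with an RXR partner such as RXRα, ZFP423 marks committed preadipocytes, KLF15 acts in maturing adipocytes, and GATA2 and GATA3 hold preadipocytes undifferentiated by restraining PPARγ and the C/EBP proteins. RUNX1 and RUNX2 are DNA-binding factors of blood and bone formation that share a DNA-binding domain.

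Promoter windows from RefSeq (GRCm38.p6, 250 bases before to 50 bases after a transcript start) were matched by symbol for 9 of the 10 genes and gave 14 windows. The upstream 250 bases of Klf15 and of the 2 Gata2 starts are shown because these genes passed the test in more of the comparisons with a control than the other 8 did. They are written 5′ to 3′ on the coding strand in lower case, with CACGTG (an E-box) and CCAAT or its reverse complement in capitals, and the final 3 capitals of the Klf15 stretch begin a CACGTG that runs past the start.
Klf15, chr6:90462326-90462575 (+): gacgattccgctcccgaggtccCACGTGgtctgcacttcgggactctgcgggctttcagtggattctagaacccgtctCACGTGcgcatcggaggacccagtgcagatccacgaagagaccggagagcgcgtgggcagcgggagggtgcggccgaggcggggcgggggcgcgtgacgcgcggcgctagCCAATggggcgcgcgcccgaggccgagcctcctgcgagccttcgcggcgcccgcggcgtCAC
Gata2 start 1, chr6:88193641-88193890 (+): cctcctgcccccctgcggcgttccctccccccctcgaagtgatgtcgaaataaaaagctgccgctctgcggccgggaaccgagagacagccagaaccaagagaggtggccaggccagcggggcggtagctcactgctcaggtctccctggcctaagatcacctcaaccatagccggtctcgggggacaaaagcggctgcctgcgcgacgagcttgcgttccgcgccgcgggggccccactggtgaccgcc
Gata2 start 2, chr6:88198414-88198663 (+): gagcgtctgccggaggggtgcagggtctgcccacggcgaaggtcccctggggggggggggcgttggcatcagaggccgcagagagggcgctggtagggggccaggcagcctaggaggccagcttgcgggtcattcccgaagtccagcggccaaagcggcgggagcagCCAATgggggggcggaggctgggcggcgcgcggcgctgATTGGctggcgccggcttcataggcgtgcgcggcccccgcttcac
The RUNX core letters TGTGGT or TGCGGT, searched on both strands, were in none of the 14 windows and in 22.4% of all 32851 windows (TGTGGT in 16.8%, TGCGGT in 6.45%), which says only that these letters are not in the windows. Klf15 held 3 CACGTG matches in its 300 bases. That palindrome was in 7.15% of all windows, and 0.0883% held 3 or more. CCAAT was found for Klf15, Gata2, Ppard and Pparg (37.4% of all windows) and TATAAA for Cebpa, Cebpb and Pparg (13.6% of all windows). These last 3 motifs were chosen after the sequences had been seen. The windows were rich in G and C: 13 of the 14 lay above the median GC content of all windows, 52.7%, with a range of 40.3% to 83%.

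Total counts per library ranged from 28.1 to 52.2, in units of 1000000 counts. Of counts between 1 and 19, 71.1% to 81.9% were even, so read pairs may have been counted as 2 and the totals may overstate the number of fragments. Adipocyte markers (Adipoq, Plin1, Fabp4, Lipe, Cidec, Pnpla2) were all detected in every library. In the knock out control cultures they summed to 8015 to 8326 counts per 1000000 (CPM, scaled by the TMM method within a table), against 0.0301 to 0.180 for 6 T cell genes. Brown adipocyte markers summed to 393 to 524 CPM with the empty vector, 36.4 to 76.8 with Runx1 and 13.2 to 17.0 with Runx2. Runx1 averaged 73.9 CPM with Runx1 overexpressed against 5.57 with the vector, and Runx2 309 CPM with Runx2 overexpressed against 8.77. Each factor also went up with the other (Runx1 by 2.44 on the log2 scale with Runx2, Runx2 by 0.94 with Runx1). Counts did not check the knockout labels: Runx1 averaged 5.43 CPM in the Runx1 knockout cultures against 5.24 in controls, and Runx2 7.61 in the Runx2 knockout against 7.71. The double knockout had 4.72 CPM of Runx1 and 7.55 of Runx2. In tissue Runx1 averaged 20.95 CPM with Adipoq-cre:Runx1 KO against 32.1 (edgeR adjusted p = 0.0779) and 11.7 in HFD knockout against 14.4 (adjusted p = 0.955), and Runx2 4.32 with Adipoq-cre:Runx2 KO against 9.89 (adjusted p = 0.254). Knockout groups are therefore meant as labelled. Some libraries stood apart from their group. In the overexpression table cardiac muscle genes summed to 93.2 CPM in vector library 1, 376 in vector library 2 and 1443 in Runx1 library 3, against 1.55 to 4.84 in the other 6. Double knockout library 1 had an adipocyte marker sum of 16077 CPM against 7951 to 9084 in the other 11 of its table. In the Runx2 tissue table flox library 3 had 35884 CPM against 13557 and 16597 in flox libraries 1 and 2. Skeletal muscle genes ranged from 14.5 to 15276 CPM within the Runx1 tissue table.

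Per kilobase of exon the 10 genes differed widely in vector cultures. Cebpa stood at 379 ± 69.7 CPM per kb (SD, n = 3), Cebpb at 209 ± 51.6 and Pparg at 183 ± 4.95, the last pair closer than the spread of Cebpb. Rxra (33.9 ± 1.90) and Ppard (28.1 ± 4.04) followed, then Klf15 (16.2 ± 2.03), Zfp423 (9.86 ± 1.22), Cebpd (3.51 ± 0.504), Gata3 (1.40 ± 0.397) and Gata2 (0.415 ± 0.177). Cebpa also ranked first in the knock out controls (450 ± 19.1), the full length Runx2 cultures (401 ± 10.2), and the Runx1 flox (149 ± 64.4), Runx2 flox (344 ± 267) and HFD WT tissue (262 ± 56.9). Gata2 and Gata3 ranked last in these 6 groups, and in Runx2 flox tissue Gata3 (3.42 ± 0.728) and Gata2 (3.03 ± 1.38) differed by less than their spread. Cebpd ranked eighth in the vector, knock out control and full length Runx2 cultures. It ranked sixth in the 3 tissue controls, where it stood at 25.2 ± 5.47 to 35.3 ± 12.1 CPM per kb. The tables were scaled separately, so orders can be set side by side but levels are not compared between them. Lengths came from GENCODE M21, a GRCm38 annotation and not the authors' mm39 build. In it 562 exonic bases of Cebpd overlap the opposite-strand gene Spidr, and the sources used here do not give the strand of counting, so Cebpd values are uncertain. Shorter overlaps touch Cebpa (51 bases of Gm45091) and Gata3 (155 bases of Gm13256).

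Added Runx1 or Runx2 was followed by changes in 8 of the 10 factors each. A gene is said to have risen or fallen when edgeR's quasi-likelihood test gave a Benjamini-Hochberg adjusted p under 0.05 over all genes of the table. With Runx1, Zfp423, Gata2 and Rxra rose and Pparg, Cebpb, Klf15, Gata3 and Ppard fell, in a comparison where 54% of 14661 genes passed (28.2% higher, 25.8% lower). With Runx2, Zfp423 and Gata2 rose and Pparg, Cebpa, Cebpb, Klf15, Gata3 and Ppard fell, where 60.9% of genes passed (31.3% higher, 29.6% lower). Vector and overexpressing libraries did not overlap for 8 members with Runx1 (59.7% of all genes) and 9 with Runx2 (69.5%). Both comparisons share the vector libraries. The median log2 difference of the 10 genes was -0.25 with Runx1 (all genes 0.06) and -0.66 with Runx2 (all genes 0.03). Between the overexpressing groups 4 members were lower with Runx2 than with Runx1 (Pparg, Cebpa, Cebpb and Klf15) and none higher, where 39.9% of genes differed and 21% were lower. Groups did not overlap for 7 members (51.3% of all genes). An alternative added after seeing the data left out the 3 libraries holding cardiac transcripts. Vector library 3 was then the only control, so log2 values alone are given for it below. Cell markers differed between the same groups. The adipocyte markers summed to 7990 to 8595 CPM with the vector, 6911 to 8505 with Runx1 (2 of 6 higher, 3 lower) and 3844 to 4601 with Runx2 (5 of 6 lower). Stromal and preadipocyte markers summed to 78.7 to 117 CPM with the vector, 319 to 352 with Runx1 and 569 to 614 with Runx2, with 3 of 5 tested genes higher in each. Their part in the members' values was not tested.

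Knockout labels went with fewer changes. None of the 10 passed in the cultures labelled Runx1 knockout (0.435% of 13551 genes passed) or Runx2 knockout (0.184%). Unadjusted p was under 0.05 for 2 members in each (6.95% and 6.43% of genes), and DESeq2 called 0 and 1 of them. Knockout and control libraries did not overlap for 4 members in each (22.9% and 18.9% of genes). These comparisons share their control libraries. In the cultures labelled double knockout Gata2 rose and Cebpa and Klf15 fell, where 15.3% of genes passed (8.27% higher, 7.01% lower) and groups did not overlap for 4 members (30.6% of genes). Klf15 was also lower in the double than in the Runx1 knockout (6.44% of genes called, 3.03% lower) and the Runx2 knockout (5.52%, 2.46% lower), as the 1 member called in each. Groups did not overlap for 5 members (34.2% of genes) and 4 members (28.9%) there. Cell markers differed between the double knockout and the controls too. Of the tested genes 2 of 6 brown adipocyte, 2 of 4 stromal and preadipocyte and 3 of 4 epithelial markers were higher and 0 lower. Of 6 adipocyte markers 0 were higher and 1 lower. The part of these markers in the members' values was not tested. Deleting the Runx2 IDR went with lower Cebpd and Klf15, where 3.91% of 13110 genes passed (2.4% lower) and groups did not overlap for 6 members (44.5% of genes). In white fat no member passed in the Runx1 tissue (7.48% of genes), the Runx2 tissue (0%) or the HFD tissue (2.11%). By unadjusted p 2, 5 and 1 members were under 0.05 there (25.1%, 20.6% and 8.5% of genes), and DESeq2 called 2, 1 and 1. Groups did not overlap for 1, 5 and 1 members (31.4%, 24.6% and 12.3% of genes).

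**Figure D1:**
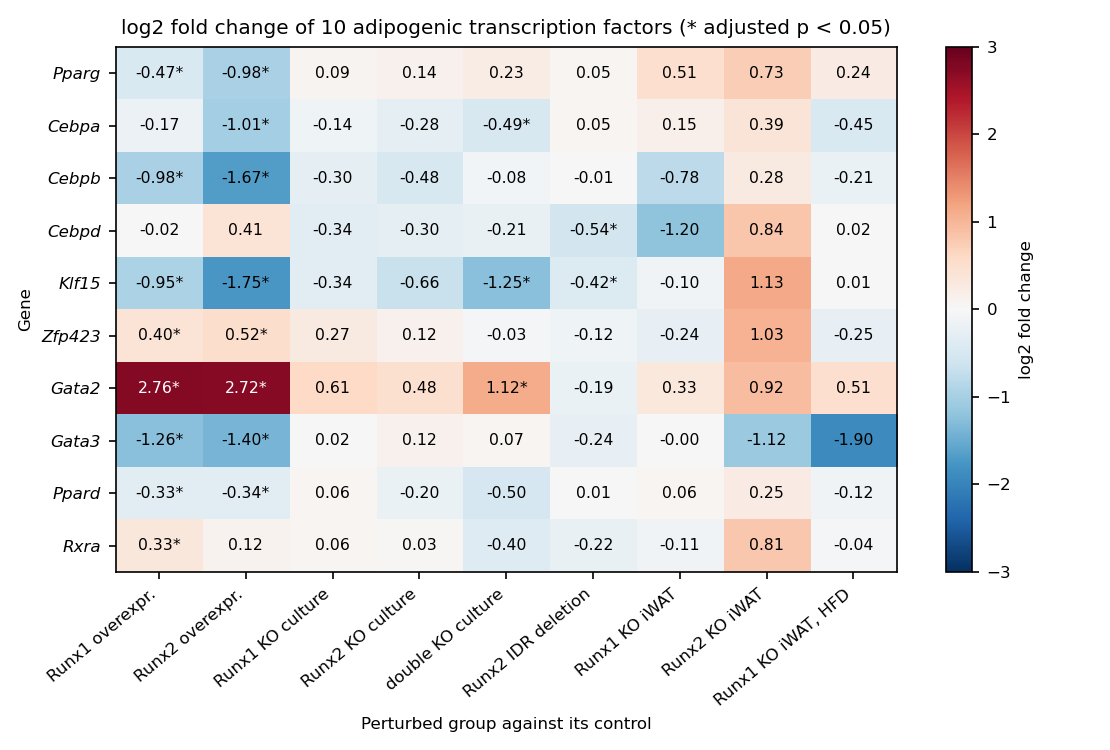
Log2 fold change of each gene (rows) in 9 comparisons of a perturbed group with its control (columns), colour from lower (blue) to higher (red), an asterisk marking adjusted p under 0.05 by edgeR. For the IDR deletion the control is full length Runx2. Klf15 carries 4 asterisks, all at negative values, and Gata2 carries 3, all at positive values, up to 2.76.

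Pparg, the nuclear receptor at the centre of fat cell formation, fell in both overexpressing groups. It stood at 446, 436 and 422 CPM with the vector, at 309, 314 and 321 with Runx1 and at 222, 212 and 225 with Runx2. The 3 groups did not overlap and were ordered vector, Runx1, Runx2. The log2 difference from the vector was -0.47 ± 0.073 (SE, n = 3 per group, edgeR adjusted p = 2.8e-04) with Runx1 and -0.98 ± 0.074 (adjusted p = 5.2e-07) with Runx2. Runx2 against Runx1 gave -0.52 ± 0.074 (adjusted p = 2.9e-04). Each of these 3 calls held under the 12 alternatives run for it, which include the fit without the cardiac libraries. In the knockout table the controls had 354, 404 and 433 CPM and the double knockout 537, 430 and 430, overlapping ranges with library 1 of the double knockout highest. The log2 difference there was 0.23 ± 0.12 (adjusted p = 0.21), and 0.05 without double knockout library 1 and control library 1. Leaving out that pair was an alternative added after seeing the data, with 2 libraries left per group. Full length and IDR-deleted Runx2 cultures differed by 0.05 ± 0.072 (n = 2 per group, adjusted p = 0.84), with a 95% interval of -0.096 to 0.19.

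Rxra, the partner with which PPARγ binds DNA, rose with Runx1. It was 169, 184 and 166 CPM with the vector, 220, 222 and 212 with Runx1 and 199, 185 and 179 with Runx2. The Runx1 libraries lay above every vector library, and the Runx2 libraries overlapped them. The rise with Runx1 was 0.33 ± 0.080 (adjusted p = 0.0045), and the difference with Runx2 was 0.12 ± 0.080 (adjusted p = 0.23). Runx2 against Runx1 gave -0.22 ± 0.080 (adjusted p = 0.0503). Rxra in the double knockout read 83.4, 121 and 129 CPM against 133, 155 and 151 in controls, all below the controls and lowest in library 1. That difference of -0.40 ± 0.15 did not pass (adjusted p = 0.089), and was -0.28 (adjusted p = 0.0053) without double knockout library 1 and control library 1. Those were the lowest libraries of their groups, so leaving them out narrows the spread and is no separate evidence of a difference. With the IDR deleted Rxra was 139 and 155 CPM against 167 and 175, a difference of -0.22 ± 0.078 (adjusted p = 0.13).

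Ppard, the broadly expressed relative of Pparg, fell slightly with both factors. Its levels were 80.2, 106 and 89.5 CPM with the vector, 71.6, 78.2 and 70.3 with Runx1 and 74.2, 74.2 and 70.1 with Runx2. Both overexpressing groups lay just below the lowest vector library. The falls were -0.33 ± 0.11 (adjusted p = 0.021) and -0.34 ± 0.11 (adjusted p = 0.016). The first was lost without vector library 2 and without Runx1 library 1. It was -0.25 without the cardiac libraries, against vector library 3 alone. The second was lost without vector library 2 and without Runx2 library 3. Ppard in the double knockout was 36.3 CPM in library 1 against 87.6 and 90.8 in the other pair, and the controls had 75.6, 117 and 112. The difference of -0.50 ± 0.28 did not pass (adjusted p = 0.23), and was -0.35 (adjusted p = 0.0020) without double knockout library 1 and control library 1. Both were the lowest of their groups, so leaving them out narrows the spread and is no separate evidence of a difference.

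**Figure D2:**
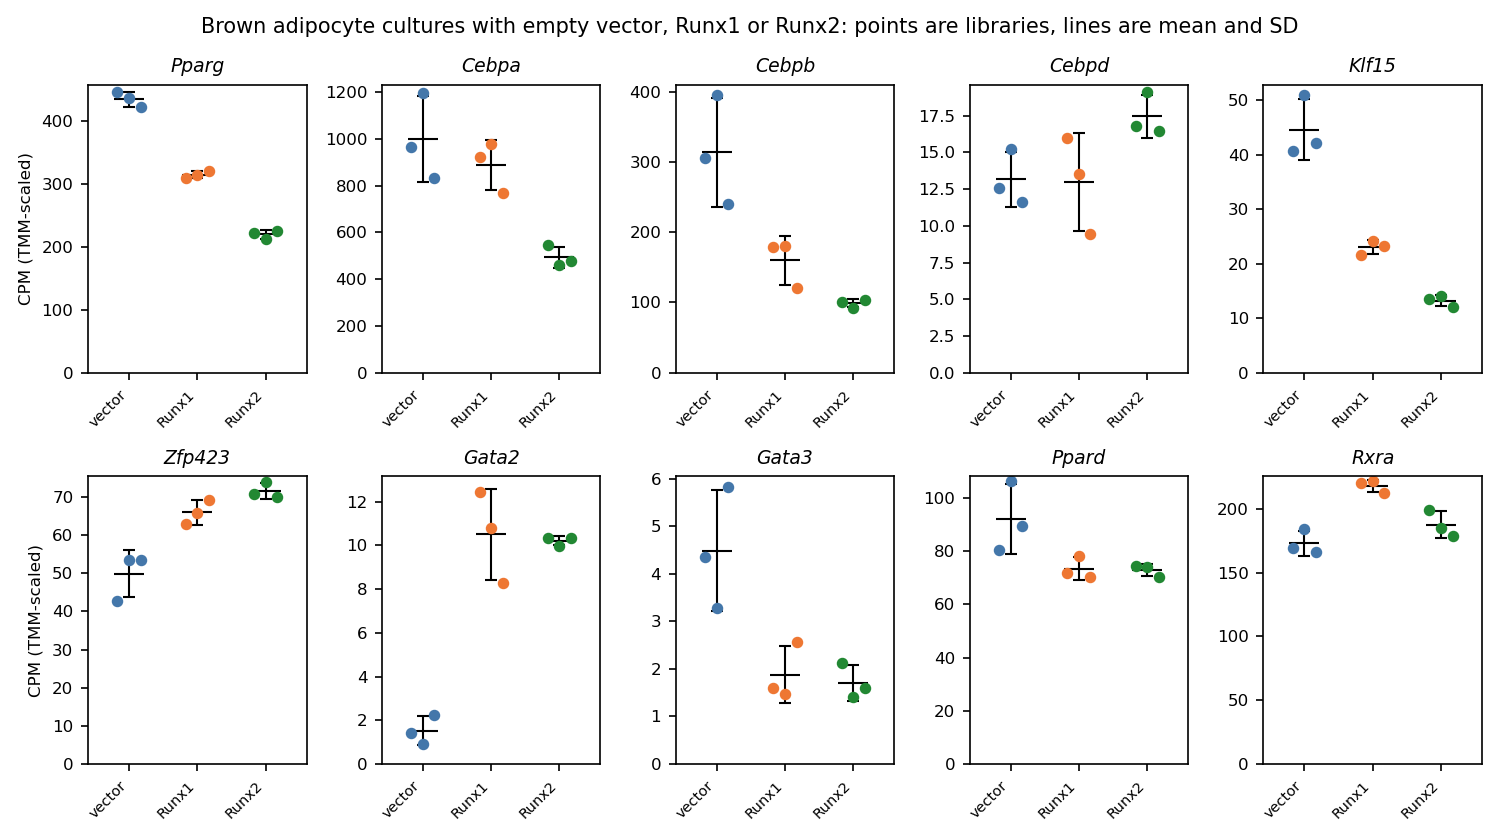
CPM of the 10 genes in the 9 overexpression libraries (3 per group), each point a library, the horizontal line and bar the group mean and SD, each axis starting at 0. Pparg steps down from 422 to 446 CPM with the vector to 309 to 321 with Runx1 and 212 to 225 with Runx2, while Gata2 lies at 0.940 to 2.23 with the vector and at 8.29 to 12.4 in the other groups.

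Cebpa, the partner that sustains Pparg and insulin response, fell with Runx2 and not with Runx1. It stood at 966, 1196 and 833 CPM with the vector, 922, 977 and 767 with Runx1 and 546, 461 and 477 with Runx2. The Runx2 libraries lay below all 6 others, and Runx1 overlapped the vector. The difference was -0.17 ± 0.14 with Runx1 (adjusted p = 0.33) and -1.01 ± 0.14 with Runx2 (adjusted p = 7.0e-05). The test between the overexpressing groups gave -0.85 ± 0.14 (adjusted p = 7.6e-04). Without the cardiac libraries, against vector library 3 alone, the Runx1 value was 0.19, of the other sign, and the Runx2 value -0.75. In the knockout table the means of Cebpa were 1186 ± 50.2 CPM in controls, 1078 ± 47.8 (Runx1), 979 ± 85.7 (Runx2) and 847 ± 21.8 (double, all SD, n = 3). The double knockout libraries, at 870, 846 and 827 CPM, lay below the controls at 1129, 1211 and 1219. Their fall was -0.49 ± 0.11 (adjusted p = 0.0096), and -0.53 without double knockout library 1 and control library 1. Fitted on those 6 libraries alone it was no longer called (adjusted p = 0.16). The Runx1 and Runx2 knockouts gave -0.14 ± 0.11 (adjusted p = 0.99) and -0.28 ± 0.11 (adjusted p = 0.59).

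Cebpb, an early factor of the cascade, fell with both added factors. The vector libraries had 306, 395 and 241 CPM, the Runx1 libraries 178, 181 and 120, and the Runx2 libraries 100, 92.3 and 103. The groups did not overlap, and Runx1 library 3 and vector library 2, both with cardiac transcripts, were the lowest and highest of their groups. The falls were -0.98 ± 0.18 (adjusted p = 0.0010) and -1.67 ± 0.19 (adjusted p = 1.4e-05). Without the cardiac libraries they were -0.42 and -1.29, against vector library 3 alone. The added fall with Runx2 over Runx1 was -0.70 ± 0.18 (adjusted p = 0.012), and was lost without Runx1 library 1 or without Runx2 library 2. In the double knockout Cebpb read 790, 362 and 322 CPM against 472, 564 and 522 in controls. Library 1 was above every control and libraries 2 and 3 below. The difference was -0.08 ± 0.27 (adjusted p = 0.87) with all libraries and -0.59 (adjusted p = 3.3e-04) without library 1. The Runx1 knockout (422, 408 and 432 CPM) and Runx2 knockout (403, 399 and 315 CPM) libraries also lay below all controls, at -0.30 ± 0.27 (adjusted p = 1.00) and -0.48 ± 0.27 (adjusted p = 0.90). Groups without overlap were seen for 22.9% and 18.9% of all genes in these comparisons, and lower without overlap for 12.4% and 9.98%.

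Cebpd, which acts beside Cebpb early in the cascade, was low in cultures. It stood at 12.6, 15.3 and 11.6 CPM with the vector, 16.0, 13.5 and 9.41 with Runx1 and 16.8, 19.1 and 16.5 with Runx2. The Runx2 libraries lay above the vector, and the Runx1 libraries spread across it. The values were -0.02 ± 0.18 (adjusted p = 0.94) and 0.41 ± 0.18 (adjusted p = 0.073), the second 0.58 without the cardiac libraries. Spidr, which overlaps Cebpd, fell in both comparisons (-1.37 and -1.17). With the Runx2 IDR deleted Cebpd was 10.8 and 14.1 CPM against 17.8 and 18.5, below both full length libraries. That fall of -0.54 ± 0.14 (adjusted p = 0.015) was lost with DESeq2, without full length library 2 and without IDR-deleted library 1, and Spidr differed by 0.01 (adjusted p = 0.98). The double knockout had 25.0, 12.1 and 10.7 CPM against 17.6, 20.5 and 17.2, with library 1 again above and the others below the controls. The difference was -0.21 ± 0.26 (adjusted p = 0.61), and -0.68 (adjusted p = 0.0013) without library 1.

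Klf15, which is induced as adipocytes mature, fell in 4 of the 9 comparisons with a control. In 1 of them, the IDR deletion, full length Runx2 served as control, so it sets 2 Runx2 forms side by side. In the overexpression table it was 40.6, 50.9 and 42.0 CPM with the vector, 21.6, 24.2 and 23.2 with Runx1 and 13.6, 13.97 and 12.1 with Runx2. The groups were fully separated, in that order. The falls were -0.95 ± 0.12 (adjusted p = 3.9e-05) and -1.75 ± 0.12 (adjusted p = 2.2e-07), and Runx2 was below Runx1 with -0.80 ± 0.12 (adjusted p = 3.4e-04). In the knockout table the controls had 52.1, 64.2 and 54.1 CPM and the Runx1 knockout 46.9, 44.4 and 43.0. The Runx2 knockout had 36.1, 39.1 and 32.9 CPM and the double knockout 27.5, 24.2 and 19.9. No 2 of these 4 groups overlapped, and the levels were ordered control, Runx1, Runx2, double. Against controls the differences were -0.34 ± 0.14 (adjusted p = 0.60), -0.66 ± 0.14 (adjusted p = 0.090, and 0.0022 by DESeq2) and -1.25 ± 0.14 (adjusted p = 1.7e-04), the last a 2.38-fold fall. The double knockout was below the Runx1 knockout by -0.91 ± 0.14 (adjusted p = 0.0041) and below the Runx2 knockout by -0.59 ± 0.14 (adjusted p = 0.027). The last of these was lost without any 1 of the Runx2 knockout libraries and both were lost when the groups were fitted alone. The fall in the double knockout against controls held under all 12 alternatives, from -1.41 to -1.15. Klf15 was thus lower both with added Runx1 or Runx2 and in cultures labelled as lacking both, measured in separate tables with separate controls.

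Klf15 also fell when the Runx2 IDR was deleted, from 45.2 and 49.0 CPM to 31.7 and 38.9. Both deleted libraries lay below both full length libraries, as for 44.5% of all genes either way. The fall was -0.42 ± 0.10 (n = 2 per group, adjusted p = 0.013), and was lost without full length library 2 or without IDR-deleted library 1. The authors' deposited table of this comparison lists 341 genes, of which Klf15 is the 1 member, with a log2 value of -0.42 and an adjusted p of 0.0363. Runx2 mRNA itself averaged 129 CPM with the IDR deleted against 294 with full length Runx2, and Runx1 3.85 against 8.21. For Runx2 a lower level cannot be told apart from fewer reads per transcript of the shortened form.

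**Figure D3:**
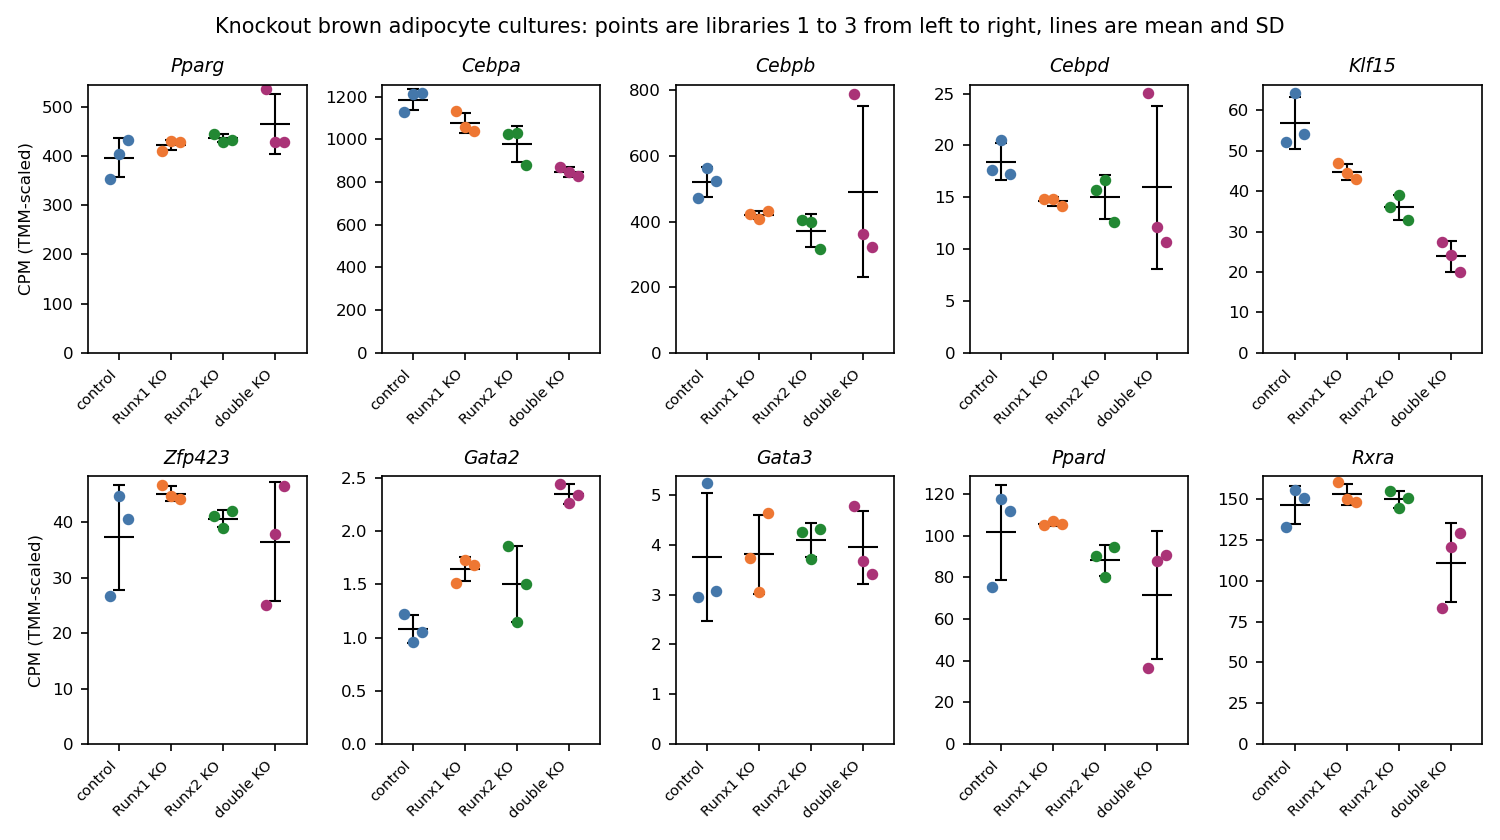
CPM of the 10 genes in the 12 knockout culture libraries (3 per group, libraries 1 to 3 from left to right), with group mean and SD, each axis starting at 0. Klf15 descends from 52.1 to 64.2 CPM in controls to 19.9 to 27.5 in the double knockout, and double knockout library 1 stands apart for Cebpb (790 CPM), Cebpd (25.0), Ppard (36.3) and Rxra (83.4).

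Zfp423, a marker of preadipocyte commitment, rose modestly with both factors. It was 42.8, 53.4 and 53.5 CPM with the vector, 62.9, 65.8 and 69.2 with Runx1 and 70.7, 74.0 and 70.0 with Runx2, with every overexpressing library above the vector. The rises were 0.40 ± 0.099 (adjusted p = 0.0053) and 0.52 ± 0.099 (adjusted p = 8.1e-04). Without the cardiac libraries they were 0.27 and 0.42, against the only vector library left. Zfp423 in the double knockout was 25.1, 37.9 and 46.4 CPM against 26.6, 44.7 and 40.5 in controls, overlapping ranges with a difference of -0.03 ± 0.21 (adjusted p = 0.94). The IDR deletion gave -0.12 ± 0.10 (adjusted p = 0.67).

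Gata2 rose and Gata3 fell in the same cultures, although both are known to restrain adipogenesis. Gata2 went from 1.42, 0.940 and 2.23 CPM with the vector to 12.4, 10.8 and 8.29 with Runx1 and 10.3, 9.98 and 10.4 with Runx2. Every overexpressing library was far above the vector, and the overexpressing groups overlapped each other. The rises were 2.76 ± 0.28 (6.79-fold, adjusted p = 9.3e-06) and 2.72 ± 0.28 (6.61-fold, adjusted p = 5.8e-06), and Runx2 against Runx1 gave -0.04 ± 0.25 (adjusted p = 0.91) with a 95% interval of -0.59 to 0.51. In the knockout table Gata2 stood at 1.22, 0.963 and 1.05 CPM in controls and 2.44, 2.26 and 2.34 in the double knockout, without overlap. The rise of 1.12 ± 0.24 (2.18-fold, adjusted p = 0.0095) was lost with the 6 libraries fitted alone (adjusted p = 0.078). The Runx1 knockout (1.51, 1.73 and 1.68 CPM) lay above the controls at 0.61 ± 0.25 (adjusted p = 0.61). The Runx2 knockout (1.86, 1.15 and 1.5002 CPM) overlapped them at 0.48 ± 0.25 (adjusted p = 0.84). Like Klf15, Gata2 thus moved in the same direction with added factor and with the double knockout label.

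Gata3 read 4.35, 3.29 and 5.83 CPM with the vector, 1.61, 1.47 and 2.57 with Runx1 and 2.13, 1.41 and 1.59 with Runx2. Both overexpressing groups lay below the vector. The falls were -1.26 ± 0.32 (adjusted p = 0.0066) and -1.40 ± 0.32 (adjusted p = 0.0030), and -1.92 and -1.77 without the cardiac libraries. In the double knockout Gata3 was 4.78, 3.66 and 3.40 CPM against 2.95, 5.24 and 3.07 in controls, which overlapped, at 0.07 ± 0.25 (adjusted p = 0.88).

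White fat is a mixture of cells, so fewer cells of a type and less RNA per cell cannot be told apart in any tissue value. In the Runx1 tissue Cebpd was 106, 185 and 106 CPM with Runx1 flox and 36.9, 54.1 and 81.5 with Adipoq-cre:Runx1 KO. Every knockout library lay below every flox library, as did 14.1% of all genes. The difference was -1.20 ± 0.36 (2.30-fold lower, edgeR adjusted p = 0.105), and -1.22 with adjusted p = 2.9e-04 by DESeq2. Cebpb read 91.4, 185 and 218 CPM with flox and 107, 91.2 and 91.0 with the knockout, overlapping through flox library 1. Its difference of -0.78 ± 0.29 did not pass (adjusted p = 0.15), and DESeq2 gave -0.79 with adjusted p = 0.017. Skeletal muscle genes summed to 14.5, 6708 and 70.6 CPM in the flox libraries and 216, 15276 and 7084 in the knockout libraries, and brown adipocyte genes to 63.5 to 109 against 233 to 354 CPM (3 of 7 higher). Endothelial genes summed to 800 to 1058 CPM with flox and 505 to 752 with the knockout (1 of 6 lower), and epithelial genes to 29.5 to 80.5 against 22.7 to 24.1. The brown, endothelial and epithelial sums did not overlap between the groups, and the part of such cells in the members' values was not tested. Pparg stood at 102, 159 and 95.5 CPM against 238, 141 and 128, a difference of 0.51 ± 0.28 (adjusted p = 0.31). The other 7 members ranged from -0.24 (Zfp423) to 0.33 (Gata2), with adjusted p of 0.31 or above.

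**Figure D4:**
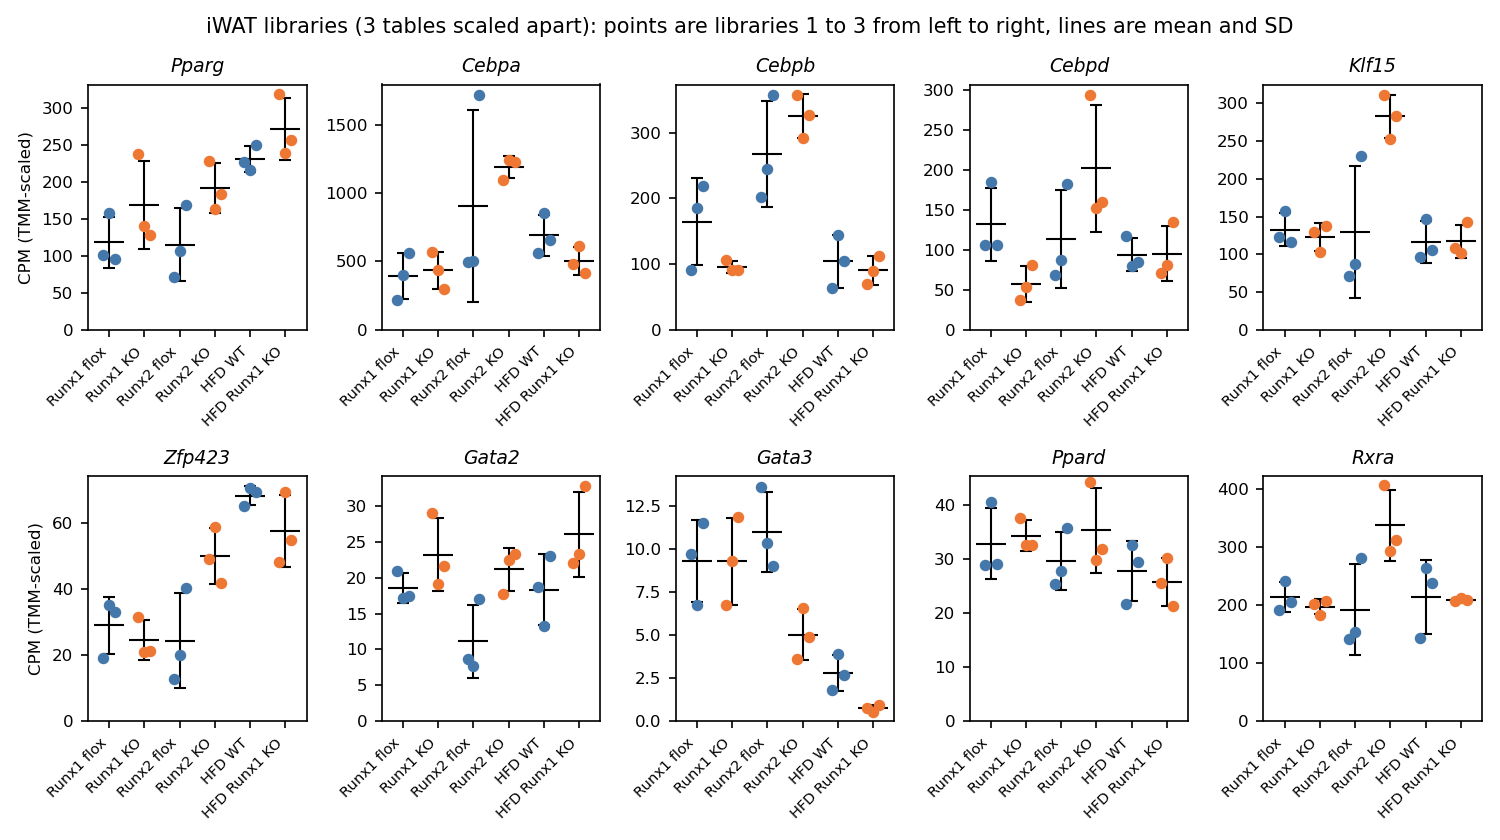
CPM of the 10 genes in 18 iWAT libraries (3 per group, libraries 1 to 3 from left to right, 3 tables scaled apart), flox or WT in blue and knockout in orange, with group mean and SD, each axis starting at 0. In Runx2 flox tissue library 3 stands above libraries 1 and 2, for instance at 230 CPM of Klf15 against 71.5 and 87.6, and Gata3 is at 0.520 to 0.945 CPM in HFD Runx1 knockout tissue.

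In the Runx2 tissue 9 of the 10 genes were higher on average with Adipoq-cre:Runx2 KO, although none passed the test, as no gene of 15574 did. The members' median was 0.77 against -0.04 for all genes. Klf15 was 71.5, 87.6 and 230 CPM with Runx2 flox and 311, 253 and 284 with the knockout, at 1.13 ± 0.43 (adjusted p = 0.23). Zfp423 was 12.7, 20.02 and 40.4 against 49.0, 58.7 and 41.8 CPM, at 1.03 ± 0.40 (adjusted p = 0.23). For both, all knockout libraries lay above all flox libraries, as 13.7% of all genes did, and flox library 3 was the nearest to them. Gata2 (8.73, 7.74 and 17.0 against 17.7, 22.5 and 23.2 CPM, 0.92 ± 0.32) and Rxra (142, 154 and 283 against 409, 294 and 312 CPM, 0.81 ± 0.31) were likewise separated (adjusted p = 0.22 and 0.23). Cebpa was 496, 506 and 1719 CPM with flox and 1099, 1244 and 1229 with the knockout, so flox library 3 was above all others. Pparg read 72.1, 106 and 168 against 229, 163 and 184 CPM, at 0.73 ± 0.32 (adjusted p = 0.25). Without flox library 3, 9 of the 10 members passed (8 higher, Gata3 lower, Ppard not called), as did 6354 genes. Klf15 was then at 1.83 (adjusted p = 2.9e-04), Cebpa at 1.25 (adjusted p = 8.3e-04) and Pparg at 1.11 (adjusted p = 0.0035). Flox library 3 lay nearer the knockout than the other flox libraries did. Leaving it out therefore parts the groups and narrows the control spread, and is no separate evidence of a difference. Leaving out any other single library called 0 members and 0 to 5 genes.

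Adipocyte and B cell markers differed between the same libraries. They summed to 13557, 16597 and 35884 CPM in Runx2 flox libraries 1 to 3 and 42852, 37414 and 45478 in the knockout, and B cell genes to 1321, 1299 and 221 against 342, 410 and 184. Flox library 3 thus lay nearer the knockout libraries in both sums, and it held 6781 CPM of skeletal muscle genes against 43.7 to 436 in the other 5. Brown adipocyte genes summed to 32.8 to 98.4 CPM with flox and 197 to 983 with the knockout, without overlap, and 0 of 7 were called. The part of these differences in the members' values was not tested.

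Gata3, which T cells also express, lay lower without overlap in both the Runx2 and the HFD knockout tissue, without passing the test in either. In the Runx2 tissue it was 13.6, 10.4 and 9.03 CPM with flox and 3.64, 6.56 and 4.91 with the knockout, lower without overlap like 11% of all genes, at -1.12 ± 0.29 (adjusted p = 0.22, and 0.018 by DESeq2). In the HFD tissue it was 1.80, 3.91 and 2.69 CPM in WT and 0.781, 0.520 and 0.945 in the knockout, again without overlap, as for 6.75% of all genes in that direction. The difference was -1.90 ± 0.48 (3.73-fold lower, edgeR adjusted p = 0.0785), and DESeq2 gave adjusted p = 0.0057. The knockout values rest on low counts of 36, 18 and 32. The authors' deposited table for this comparison lists 403 genes and Gata3 is the 1 member among them, with a log2 value of -1.90 and adjusted p of 0.00633. T cell genes (6 in the table) summed to 94.2, 256 and 146 CPM in HFD WT libraries and 16.5, 5.17 and 21.4 in the knockout, and all 6 fell. The 4 B cell genes fell too, from 156 to 313 CPM to 2.02 to 3.28. In the Runx2 tissue the T cell sum was 476 to 1161 CPM with flox and 316 to 406 with the knockout, with 0 of 6 genes called. In the Runx1 tissue, where it was 416 to 590 and 451 to 643 CPM, Gata3 stood at 9.69, 6.75 and 11.5 CPM with flox and 6.77, 9.29 and 11.8 with the knockout (difference -0.002 ± 0.27, adjusted p = 1.00). The part of T cells in the Gata3 values was not tested. Of the other HFD values, Gata2 was at 0.51 ± 0.26 (adjusted p = 0.70), Cebpa at -0.45 ± 0.25 (adjusted p = 0.76), and the remaining 7 lay between -0.25 and 0.24.

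**Figure D5:**
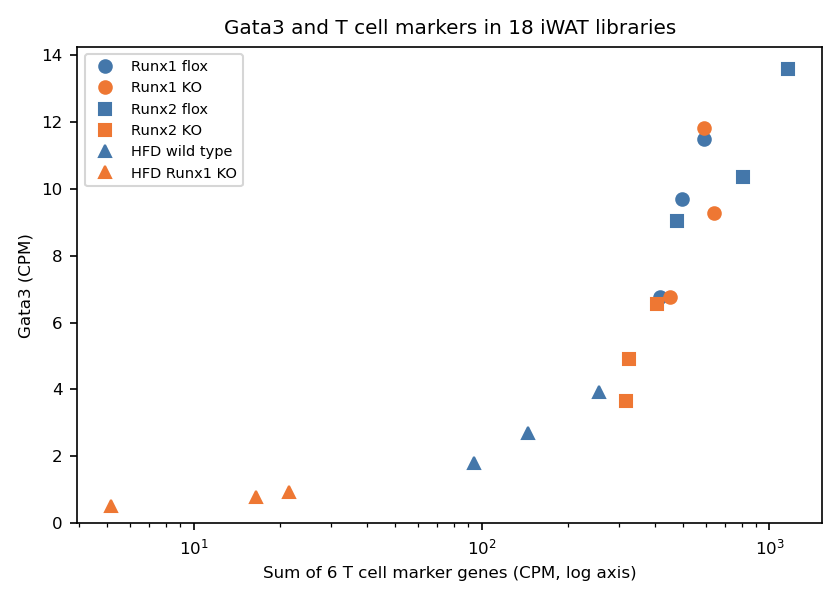
Gata3 level (CPM, vertical axis) against the summed level of 6 T cell genes (CPM, log horizontal axis) in 18 iWAT libraries of 3 tables scaled apart, blue for flox or WT and orange for knockout. The 3 HFD knockout libraries are lowest on both axes (Gata3 at 0.520 to 0.945 CPM, T cell genes at 5.17 to 21.4 CPM), and Runx2 flox library 1 is highest on both (13.6 and 1161 CPM).

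Of the 25 adipocyte target genes of PPARG and C/EBPA listed, more fell with Runx2 than with Runx1. The list includes genes also used as adipocyte markers. With Runx1 64% of it passed and with Runx2 80%, against 54% and 60.9% of all genes. Between those groups 39.9% of all genes passed. In the double knockout 15.3% did, in the Runx1 tissue 7.48% and with the IDR deleted 3.91%. With Runx2 overexpressed 19 fell and 1 rose (median -0.96), among them Slc2a4, the insulin-responsive glucose carrier (log2 -1.84), Cidec of the lipid droplet (-1.81) and Lipe, hormone-sensitive lipase (-1.69). Mgll, a monoglyceride lipase, rose by 0.26. With Runx1 9 fell and 7 rose (median -0.09). Pdk4 (-2.83), Angptl4 (-1.11) and Slc2a4 (-0.90) fell, while Retn (1.11), Acsl1 (0.98) and Mgll (0.95) rose. Between the 2 groups 20 were lower and 1 higher with Runx2. In the double knockout 6 fell, led by Dgat2 (-1.20), Pdk4 (-1.07) and Pnpla2 (-1.03), and Lep (1.87) and Fabp5 (0.63) rose. In the Runx1 tissue Gpam (1.28), Gpd1 (1.04) and Slc2a4 (0.97) were among 4 that rose, and Pck1 (-1.69) and Angptl4 (-1.30) fell. The IDR deletion raised 4 (Gpd1 0.41, Agpat2 0.38, Plin1 0.32) and lowered 5 (Pck1 -0.69).

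Other positive regulators of adipogenesis, 17 transcription factors, had 9 falling and 3 rising with Runx1 (median -0.37) and 9 falling and 3 rising with Runx2 (median -0.42). Those calls made up 70.6% of the list in each, against 54% and 60.9% of all genes. Between the overexpressing groups 8 of the 17 differed (47.1%, against 39.9% of all genes), 5 higher and 3 lower with Runx2. Ebf2, a factor of brown preadipocytes, was at -2.22 with Runx1 and -2.54 with Runx2, and Klf9, a Krüppel-like relative of Klf15, at -1.87 and -1.19. Egr2 rose by 1.03 and 5.29, and Klf4 by 0.56 and 1.94. Klf9 also fell in the double knockout (-1.19, adjusted p = 3.7e-04) and with the IDR deleted (-0.34, adjusted p = 0.0046), the comparisons in which Klf15 fell. Of 19 negative regulators tested, 8 rose and 4 fell with Runx1 and 11 rose and 2 fell with Runx2 (medians 0.09 and 0.48). Calls thus covered 63.2% and 68.4% of them, against 54% and 60.9% of all genes. Sox9 rose by 1.64 and 2.27, and Foxo1 was at -1.13 and -1.63. Wnt10b, a signal that blocks adipogenesis, averaged 44.6 CPM with Runx1 and 26.3 with Runx2 against 0.0970 with the vector. Dlk1, the preadipocyte factor Pref-1, rose in the Runx1 knockout (2.15, adjusted p = 0.019) and the double knockout (3.55, adjusted p = 6.9e-05), from a mean of 0.568 CPM in controls to 2.50 and 6.58.

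PPARG works through coregulators, of which 16 were listed. With Runx1 10 fell and 1 rose (median -0.43), and with Runx2 6 fell and 3 rose (median -0.05). These were 68.8% and 56.2% of the list, against 54% and 60.9% of all genes. Prdm16, a coregulator of the brown programme, fell (-3.18 and -2.40), as did Ppargc1b (-1.65 and -2.21) and the corepressor Ncor1 (-1.25 and -0.80). Among 10 relatives of PPAR and RXR, 4 rose and 2 fell with Runx1, and 3 rose and 5 fell with Runx2. This was 60% and 80% of the list, against 54% and 60.9% of all genes. Ppara, the receptor of fat burning, was at -2.99 with Runx1 and -3.94 with Runx2. Rarg rose by 0.93 and 1.60, Nr1h3 by 0.84 with Runx1 and Nr1d1 by 1.96 with Runx2. Rxrg fell with Runx2 (-2.32) and rose in the double knockout (1.79), where Rxrb fell (-0.74). In the Runx1 tissue Ppara (1.16), Rarg (1.26) and Nr1h3 (0.55) rose. Of 8 tested relatives and partners of the C/EBP genes, 5 fell with Runx1 and 4 fell and 1 rose with Runx2. Each is 62.5% of those tested, against 54% and 60.9% of all genes. Trib3 was at -2.06 and -1.82, and Cebpg at -0.61 and -0.70. In the Runx2 and HFD tissue none of the genes in these 6 lists passed, where 0% and 2.11% of all genes did.

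Over the 9 comparisons with a control, the 3 genes whose log2 values lay closest to those of Pparg were Katnal2 (root mean square difference 0.128), Mto1 (0.134) and Timm17a (0.141), among 10804 genes whose median was 0.577. Katnal2 was at -0.54 with Runx1, -0.88 with Runx2 and 0.91 in the Runx2 tissue, beside -0.47, -0.98 and 0.73 for Pparg. For Cebpa they were Gnpat (0.140), Mpst (0.146) and Blvrb (0.152), with a median of 0.537. Gnpat was at -0.38 with Runx1, -1.06 with Runx2 and -0.56 in the double knockout, beside -0.17, -1.01 and -0.49 for Cebpa.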

How the data were processed

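PolyA RNA-seq counts of 43 libraries were used. Per the submitters' processing notes, reads went through fastp, STAR and featureCounts on mm39; versions and strand settings are not given in the sources used here. The authors deposited 6 tables of raw counts per gene, and 2 lists of differential genes with log2 fold changes and adjusted p-values, whose 10 columns of per-sample values were not used. Columns were matched to samples by name; the HFD table was matched partly by elimination. Low counts were filtered with filterByExpr and libraries scaled by TMM. Differences were tested within a table by edgeR 4.0.16 (quasi-likelihood, R 4.3.3), adjusted by Benjamini-Hochberg over all genes tested (13110 to 15896), with a threshold of 0.05; standard errors were log2 fold change over the square root of F, and intervals cover 95%. DESeq2 1.42.0 and other settings were alternatives. The test, checked on simulated data with 200 changed genes, recovered 72% of 2-fold changes in the Runx1 overexpression comparison, 59% in the Runx1 knockout cultures, 89% in the IDR comparison, 46% in the Runx1 tissue, 30% in the HFD tissue and 3% in the Runx2 tissue, where 74% of 4-fold changes were recovered. In the same order, 6.06%, 6.25%, 6.97%, 8.21%, 12.6% and 4.94% of the calls were genes that had not been changed. The members, lists and markers were chosen with earlier results of these data known. Text names the 10 members in every comparison, up to 3 called genes of lowest adjusted p in each direction per list, and for Pparg and Cebpa the 3 genes with the smallest root mean square difference of log2 fold changes, among genes with mean CPM of at least 5. Spidr was added for its overlap with Cebpd. A result on 1 listed gene is not reported here. Promoters were RefSeq windows (GRCm38.p6) and exon lengths GENCODE M21. Figures used matplotlib 3.10.9 on Python 3.11.15.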

Additional observations from a re-analysis of the deposited data

Results flagged for a closer look

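In 7 cases every library of 1 knockout comparison moved one way and every library of another the opposite way, relative to the mean of its controls. None of these differences was tested, and none of the values passed its own test by edgeR. The rule takes no account of the spread of the controls, and the share of all genes that meet it is not given. In the HFD tissue the Rxra knockout libraries (207 to 212 CPM) lay within the WT range (143 to 264 CPM). Rxra was at 0.064 in the Runx1 knockout cultures, at -0.11 in the Runx1 tissue and at -0.040 in the HFD Runx1 tissue (log2 difference from the control). The other 5 cases set the Runx2 knockout cultures against the Runx2 tissue. Klf15 was at -0.66 in the cultures and 1.13 in the tissue, Cebpd at -0.30 and 0.84, Cebpb at -0.48 and 0.28, Cebpa at -0.28 and 0.39, and Ppard at -0.20 and 0.25. The tissue values rest on a control group in which library 3 differed from libraries 1 and 2.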

How the results depend on the processing

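Of 27 member calls over 12 comparisons, 17 held under every alternative run for them; of 1300 alternative values 0 reversed a call, 20 lost one, 41 gained one and 70 changed sign without passing in either fit. Members called with DESeq2 were 1 in the Runx2 knockout cultures, 3 in the double against Runx1 knockout, 2 in the Runx1 tissue, 1 in the Runx2 tissue, 1 in the HFD tissue and 1 in the IDR comparison (0, 1, 0, 0, 0 and 2 with edgeR). With the 2 groups fitted alone they were 1 in the Runx2 knockout, 1 in the double knockout, and 0 in the double against the Runx1 and against the Runx2 knockout. Without double knockout library 1 and control library 1, a setting added after seeing the data, 7 were called. Leaving out 1 library gave 3 to 5 in the double knockout, 1 to 3 and 0 to 2 against the single knockouts, 0 to 1 in the Runx1 tissue, 0 to 9 in the Runx2 tissue and 0 to 3 in the IDR comparison. The cause was not tested. The alternatives counted here include fits that leave 1 library in a group. Counts over all genes moved as follows from edgeR to DESeq2: 59 to 189 (Runx1 knockout), 25 to 160 (Runx2 knockout), 873 to 1780 and 748 to 1501 (double against Runx1 and Runx2), 1189 to 2249 (Runx1 tissue), 0 to 950 (Runx2 tissue) and 318 to 554 (HFD). With the groups alone they were 195, 105, 379 (double knockout, from 2070), 7 and 31, and 4335 without the 2 libraries. Leaving out 1 library gave 4 to 28 in the Runx1 knockout, 0 to 9 in the Runx2 knockout, 1050 to 3584 in the double knockout, 176 to 1952 and 205 to 1768 against the single knockouts, 99 to 1381 in the Runx1 tissue, 0 to 6354 in the Runx2 tissue, 120 to 394 in the HFD tissue and 242 to 1214 in the IDR comparison. In 0 of 11 comparisons did every library correlate best with its own replicate number, and same-number correlations ran from -0.265 to 0.413. This rule needs every library to match, so it cannot exclude pairing or a shared batch. All same-number correlations were positive in the double knockout against controls (0.192, 0.154 and 0.042) and the Runx2 tissue (0.0255, 0.205 and 0.413). In the others of these 11 they were mixed in sign or negative. With the replicate block, 8, 9 and 5 members were called in the overexpression comparisons, 0, 0, 3, 1 and 1 in the knockout cultures, 0 in each tissue and 2 in the IDR comparison, and 32, 12, 744, 206 and 707 genes in the Runx1 and Runx2 knockouts, the Runx1 and HFD tissue and the IDR comparison. Depth limits Gata2 and Gata3 in the control cultures, where they lay at 0.821 to 5.83 CPM. It also limits Gata3 with added Runx1 or Runx2 (1.41 to 2.57 CPM) and in the HFD knockout tissue (0.520 to 0.945 CPM).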
